A study of Mus musculus with 2 samples.

Results

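The genes described here encode the acid compartment of the lysosome: the vacuolar proton pump (V-ATPase), the cathepsins and the lysosome-associated membrane proteins (LAMPs). Earlier results of these data were known when they were chosen. The name rule took protein-coding genes with a symbol that begins with Atp6v or is Cts or Lamp followed by a single letter or number. A total of 45 genes met this rule, of 21461 nuclear protein-coding genes and 69691 rows in the gene table. They comprised 13 V1 subunit genes, 9 V0 subunit genes, 18 cathepsins, 4 LAMPs and Atp6v1fnb, a gene that carries its neighbour's name and is not a pump subunit. Poly(A) RNA had been sequenced from G1E-ER4, an immortalized mouse erythroid line. Its parental cells lack Gata1, and the line carries GATA-1 joined to the ligand-binding domain of an oestrogen receptor, which estradiol switches on. Cells labelled male had been kept in 10 nM 17beta-estradiol for 24 h, and both libraries, biological replicates 1 and 2, belong to this 1 group. No uninduced library was analysed here, so the values describe the induced state and no change with induction can be given. Whether the replicates came from separate cultures is not stated in the labels, and no p-value is given.

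The V-ATPase is a rotary machine. Its V1 domain, on the cytosolic face, hydrolyses ATP at alternating A and B subunits, and the membrane-embedded V0 domain carries protons through a ring of c subunits against the a subunit. The acid it makes lets cathepsins, which are made as inactive precursors, mature and digest protein, while the heavily glycosylated LAMPs line the inner face of the limiting membrane. Maturing red cells use this route to remove mitochondria and other organelles, and the pump also acidifies the endosomes in which transferrin gives up its iron.

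Promoter sequence is shown first, because many lysosomal genes are known to carry the E-box CACGTG, the core of the element that TFEB and TFE3 bind. RefSeq windows (GRCm38.p6) of 250 bases before to 50 bases after a start site were at hand for 35 of the 45 genes. Those without a window were Atp6v0a2, Atp6v0d2, Atp6v1b2, Atp6v1c1, Atp6v1g1, Atp6v1h, Ctsb, Ctse, Ctsh and Ctsw. With so many genes lacking a window, reading a share over the group is void, and the sequences are given only as a description. CACGTG, which reads the same on both strands, stood in 9 of the 35 genes at 15 places, 12 of them within 100 bases of the start site. Some genes had several windows, and a gene was counted if any of its windows held the motif. The same letters occur in the window of 8.91% of all genes, and of 12.7% of those detected in these libraries. All 9 genes reached the detection threshold used for these libraries, as did 18 of the 35. The places are shown on the strand of the gene with 7 bases on each side, CACGTG in capitals, and the position of its first base relative to the start site in words.

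In Lamp1 the motif occurred 4 times in a row, beginning 61, 45, 28 and 15 bases before the start site. The run lies at chr8:13158911-13159160 on the plus strand, just before the gene, and is printed here because none of the other genes with a window held as many copies.
Lamp1 upstream: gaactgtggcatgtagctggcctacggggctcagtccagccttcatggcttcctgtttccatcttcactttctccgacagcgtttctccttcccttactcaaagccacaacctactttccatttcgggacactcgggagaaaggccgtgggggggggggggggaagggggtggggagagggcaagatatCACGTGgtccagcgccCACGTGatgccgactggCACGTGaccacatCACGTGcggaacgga

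Atp6v0b, the gene with the highest level per transcript length in the group, held a pair of copies. They begin 36 and 18 bases before the start site, at chr4:117887334-117887579 on the minus strand.
Atp6v0b upstream: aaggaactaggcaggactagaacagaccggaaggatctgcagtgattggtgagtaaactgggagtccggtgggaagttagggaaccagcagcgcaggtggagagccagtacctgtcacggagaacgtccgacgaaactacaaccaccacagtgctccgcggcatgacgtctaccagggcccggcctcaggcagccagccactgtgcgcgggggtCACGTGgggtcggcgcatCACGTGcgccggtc

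The longer palindrome TCACGTGA was present in 5 genes, all of them detected, at 6 places. It was present in 1.41% of all genes and in 2.72% of those detected in these libraries. It is shown for each of the 5 genes, so that the shared letters around the core can be seen. In Atp6v0d1 (chr8:105566055-105566074, minus strand) CACGTG began 3 bases before the start site, and in Atp6v0e (chr17:26676392-26676411, plus strand) 3 bases after it. In Atp6v1a (chr16:44139378-44139397, minus strand) it began 131 bases before the start site. In Ctsa, on the plus strand, it began 12 bases before (chr2:164833754-164833773) and 5 bases after (chr2:164833771-164833790) the start site. Both places lie in the window chr2:164833523-164833822. Another Ctsa window, chr2:164832622-164832921, held no CACGTG. In Ctsd (chr7:142387913-142387932, minus strand) it began 98 bases before the start site.
Atp6v0d1: ctgcggtCACGTGagacgcg
Atp6v0e: cgccgatCACGTGagcctct
Atp6v1a: tttaaatCACGTGataggct
Ctsa, first: aaactgtCACGTGatgcaga
Ctsa, second: agatgctCACGTGaccagag
Ctsd: cgcgtctCACGTGacccgtt

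The remaining places complete the set. They began 79 bases before the start site in Ctsf (chr19:4855079-4855098, plus strand), 236 bases before it in Ctsl (chr13:64370744-64370763, minus strand) and 245 bases before it in Ctsd (chr7:142388060-142388077, minus strand), where the window begins with only 5 bases of flank.
Ctsf: cgtggtcCACGTGcctcgcg
Ctsl: tagaagcCACGTGctgatct
Ctsd, distal: tccccCACGTGacctgta
The full element known as CLEAR, which is CACGTG with GT before and AC after it, was not found in any of the 35 genes. It occurs in 0.469% of all genes and in 0.991% of those detected. The GATA motif, searched as AGATAA or TGATAA on both strands, was found in 7 of the 35 genes, against 18.2% of all genes. Of the 18 detected genes with a window 3 held it, against 11.5% of all detected genes, and of the 17 others 4 held it. A match is a description of letters, not of a bound site, and no match says only that these letters are not in the window.

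The libraries held 20412826 (replicate 1) and 18564086 (replicate 2) expected counts, and a gene was called detected at 1 TPM (a level per transcript length, scaled to 1000000 in each library) or more in both. By this measure 25 of the 45 genes were detected (55.6%), beside 41.2% of all nuclear protein-coding genes. At a threshold of 100 TPM, 9 of the 45 passed, beside 5.47% of all. The median level of the detected genes was 75.8 TPM, against 20.7 TPM over all detected nuclear protein-coding genes. Together the 45 genes held 0.276% of TPM in replicate 1 and 0.287% in replicate 2. Of the other 20 genes, 12 had 0 counts in both libraries, and the highest of the rest, Ctso, had 17 and 23 counts in replicates 1 and 2. All 10 erythroid markers were detected, among them Hbb-bs, Klf1, Alas2 and Slc4a1. Gata1 is one of the 10, and its reads cannot be told apart from those of the introduced fusion, so it does not mark the cells.

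The V1 domain was represented by a full set of subunits. Of its 13 genes, 9 were detected, with a median of 64.5 TPM. Atp6v1f, which encodes a small subunit of the central stalk, had the highest level of the domain at 258 and 287 TPM in replicates 1 and 2 (273 ± 20.3, mean and SD, n = 2 here and below). It lies on chromosome 6 from 29467718 to 29470512 (GRCm38, as are all gene positions). Atp6v1e1, a subunit of the peripheral stalks, followed at 154 and 166 TPM (160 ± 8.47). The 2 replicates did not overlap between these genes and any lower one of the domain.

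Atp6v1b2, the B subunit of the ATP-hydrolysing head, stood at 102 and 99.6 TPM (101 ± 1.88). Atp6v1g1, another peripheral stalk subunit, stood at 96.4 and 93.2 TPM (94.8 ± 2.21). Atp6v1a, the catalytic A subunit, stood at 68.0 and 61.0 TPM (64.5 ± 4.94). The A subunit mRNA was thus lower than that of its partner B, at a log2 ratio of Atp6v1a over Atp6v1b2 of -0.65 ± 0.08, and it was lower in each replicate. In the assembled head A and B are present in equal number, and mRNA levels say nothing of protein levels here.

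Atp6v1d, the shaft that turns inside the head, was at 71.4 and 50.9 TPM (61.2 ± 14.5), and its range covered both values of Atp6v1a. Atp6v1c1, which links the peripheral stalks to V0, was at 33.2 and 26.1 TPM. Atp6v1h, a regulatory subunit needed for the pump to work, was at 34.9 and 23.6 TPM. These last 2 genes did not differ beyond their spread and were the lowest of the V1 set apart from Atp6v1g2. Atp6v1g2, the form of the G subunit known from brain, reached only 2.00 and 1.56 TPM on 32.8 and 28 counts.

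The V0 domain had the highest levels of the group. Of the 9 V0 genes, 6 were detected, 4 of them at 100 TPM or more, and the median was 208 TPM. Atp6v0b, which encodes the c'' subunit of the proton-carrying ring, stood at 367 and 395 TPM (381 ± 19.2). By TPM it was the highest of all 45 genes, at rank 280 among nuclear protein-coding genes. It lies on chromosome 4 from 117884326 to 117887333. Atp6v0c, the c subunit that makes up most of the ring, was at 293 and 289 TPM (291 ± 2.75). Atp6v0e, a small membrane subunit, was at 268 and 290.5 TPM (279 ± 15.7). The values of Atp6v0c and Atp6v0e overlapped, while both lay below Atp6v0b in each library. By expected counts, not divided by length, Atp6v0c was above Atp6v0b, at a log2 ratio of 0.27 against -0.39 by TPM. Lamp1, Ctsb, Atp6v0a1 and Ctsd also had more expected counts than Atp6v0b in each library.

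Atp6v0a1, the a subunit that holds the proton half-channels, was at 137 TPM in each library (137 ± 0.0424). Atp6v0d1, which couples the shaft to the ring, was at 75.5 and 76.1 TPM (75.8 ± 0.389). Atp6v0a2, another a subunit, was at 12.1 and 13.1 TPM (12.6 ± 0.693). The 3 levels were far apart relative to their SDs, which ran below 1 TPM. Summed levels were 1153 and 1200 TPM for V0 and 820 and 809 TPM for V1, and the whole pump came to 1991 ± 25.1 TPM.

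**Figure D1:**
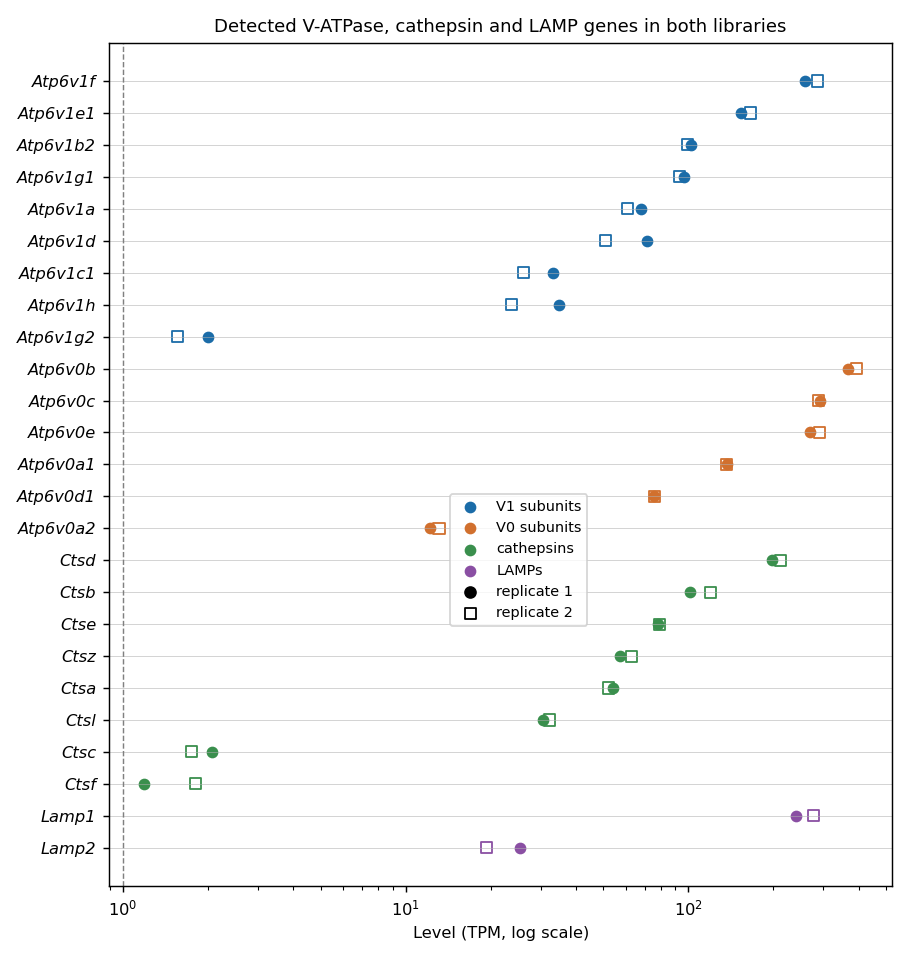
Level (TPM, log scale) of the 25 detected genes, 1 row a gene, with filled circles for replicate 1 and open squares for replicate 2, coloured by role. V0 genes reach furthest right, with Atp6v0b at 367 and 395 TPM, and the dashed line marks the detection threshold of 1 TPM.

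Many pump subunits come in several genes, and in these cells a single gene had by far the highest level of each such kind. The 22 subunit genes fall into 13 kinds of subunit, 8 in V1 and 5 in V0, and each kind had a detected gene. Of the 7 kinds with more than 1 gene, 2 had more than 1 detected. For the a subunit, Atp6v0a1 held 91.5% of the summed TPM of the Atp6v0a genes, and the log2 ratio of Atp6v0a2 over Atp6v0a1 was -3.44 ± 0.08. A further a subunit is encoded by Tcirg1, which the name rule does not take, and which stood at 10.2 and 10.5 TPM. For the G subunit, Atp6v1g1 held 98.2%, at a log2 ratio over Atp6v1g2 of 5.75 ± 0.22.

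Apart from Atp6v1g2, most forms known from specialised tissues were listed at 0 counts in both libraries. These were Atp6v1b1, Atp6v1g3 and Atp6v0a4, known from acid-secreting cells of the kidney, Atp6v1e2, known from testis, Atp6v0d2, known from osteoclasts and kidney, and Atp6v0e2, known from brain. Atp6v1c2 had 1 count in replicate 1 and 0 in replicate 2. A count of 0 allows up to 3 counts per library, which for the 12 genes of the group at 0 corresponds to 0.0989 to 0.212 TPM. Against that limit, Atp6v0e was at least 2543-fold higher than Atp6v0e2, Atp6v0a1 at least 919-fold higher than Atp6v0a4, and Atp6v1b2 at least 918-fold higher than Atp6v1b1. Atp6v1e1 was at least 782-fold higher than Atp6v1e2, and Atp6v0d1 at least 527-fold higher than Atp6v0d2. These limits cover counting error only. They hold only if a listed 0 is not a failed estimate, which was not tested.

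**Figure D2:**
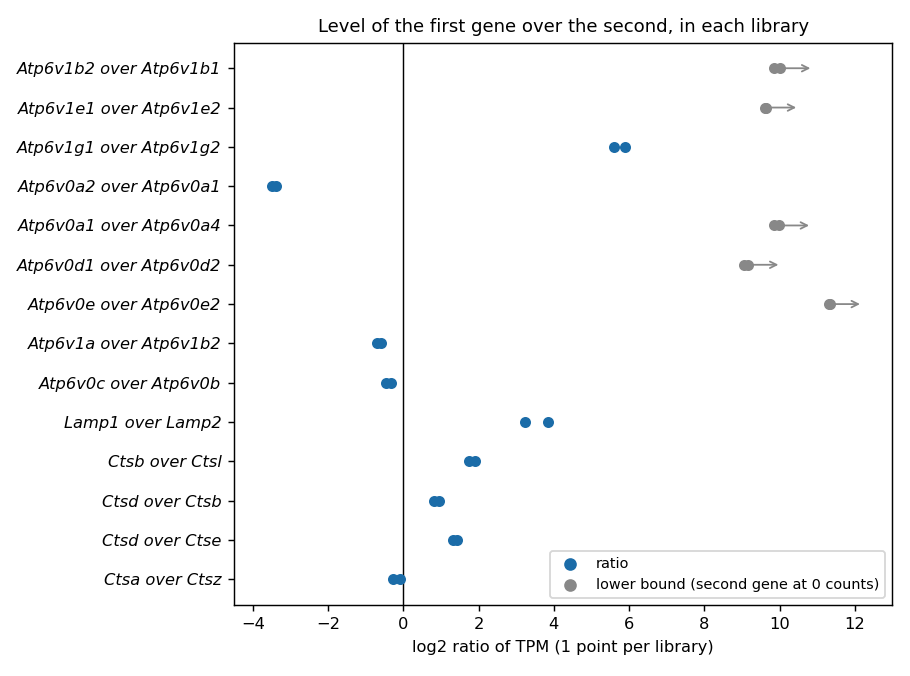
Log2 ratio of the TPM of 1 gene over another in each library (1 point per library), for paralogous or partner genes. Blue points are ratios, and grey points with arrows are lower bounds where the second gene had 0 counts; the bounds run above 9 while Atp6v0a2 over Atp6v0a1 lies at -3.44.

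The cathepsins divided into 6 genes at 30 TPM or more, a pair just above the threshold and 10 below it. Of the 18 genes, 8 were detected, with a median of 56.6 TPM, and the 18 summed to 523 and 564 TPM in replicates 1 and 2. Ctsd, an aspartic protease and the main lysosomal one of that class, led at 197 and 213 TPM (205 ± 11.1). Ctsb, a cysteine protease, followed at 102 and 120 TPM (111 ± 13.0). Ctsd exceeded Ctsb by 0.89 ± 0.09 on the log2 scale per transcript length. By expected counts, which are not divided by length, the order was reversed, at -0.40, since the listed Ctsb transcript is 4739 bases long.

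Ctse, an aspartic protease that lies outside the lysosome in many cells and is known from the red cell membrane, was at 78.4 and 79.0 TPM (78.7 ± 0.453). Ctsd was higher than Ctse by 1.38 ± 0.07 on the log2 scale. Ctsz, a cysteine carboxypeptidase, was at 57.3 and 63.1 TPM (60.2 ± 4.10). Ctsa, a serine carboxypeptidase that also protects beta-galactosidase and neuraminidase, was at 54.1 and 52.0 TPM (53.1 ± 1.46). Ctsa lay below Ctsz in both libraries, by a log2 ratio of -0.18 ± 0.14, which is little more than its SD. By expected counts this ratio was -0.45. Most of the Ctsa level lay on models annotated as non-coding. Its complete coding form Ctsa-202 was at 17.3 and 19.7 TPM, far below Ctsz in each library. Ctsl, a cysteine protease, was at 30.6 and 32.3 TPM, and Ctsb exceeded it by 1.81 ± 0.11 on the log2 scale. By expected counts, not divided by length, Ctsb exceeded Ctsl by 3.09.

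At the edge of detection were Ctsc, a dipeptidyl peptidase that activates the serine proteases of granules, at 2.07 and 1.75 TPM, and Ctsf, a cysteine protease, at 1.19 and 1.80 TPM. Their values overlapped. In bulk RNA, a few cells with much of a message and many cells with little of it cannot be told apart. Below the threshold, the highest level was that of Ctso, at 0.520 and 0.720 TPM. Ctsw, known from cytotoxic lymphocytes, had 1 and 3 counts, and Ctsk, the collagen-degrading protease of osteoclasts, had 2 and 1. Ctsh, an aminopeptidase, and Ctsj, of the rodent placental cluster, each had 0 and 1 count. Ctss, known from antigen-presenting cells, Ctsg, a serine protease of neutrophil granules, and Ctsm, Ctsq and Ctsr of the placental cluster on chromosome 13 were at 0 in both libraries. Lists of markers of such cells gave a like picture, with Acp5 an exception. Of 6 cytotoxic lymphocyte and 6 mast cell markers none was detected, and of 9 macrophage and granulocyte markers only Cd68 was, at 2.76 and 3.51 TPM, with summed levels of the list at 3.28 and 4.06 TPM. Of 6 osteoclast markers only Acp5 was detected, at 149 and 152 TPM, a level above that of Ctsb. Calcr, Dcstamp, Ocstamp and Mmp9 were at 0 counts, as were Adgre1, Lyz2, Elane and Ly6g of the myeloid list.

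Of the 4 LAMPs, a single one carried most of the message. Lamp1, on chromosome 8 from 13159161 to 13175338, was at 240 and 278 TPM (259 ± 26.6). Lamp2, on the X chromosome from 38401357 to 38456454, was at 25.4 and 19.3 TPM (22.4 ± 4.33). Both proteins are major components of the limiting membrane, and LAMP2 is also needed for lysosomes to fuse with autophagosomes and, in one form, for chaperone-mediated autophagy. Lamp1 exceeded Lamp2 by 3.55 ± 0.43 on the log2 scale, 9.45-fold in replicate 1 and 14.4-fold in replicate 2. The replicates moved in opposite directions for these genes, so this ratio had the widest spread of the 9 that could be formed. Lamp3, known from mature dendritic cells, had 1.05 and 0 counts, and Lamp5, known from neurons, had 0.

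Transcript shares were read for the 25 genes with at least 20 counts in each library. Only 1 transcript was listed for 10 of them, Lamp1, Ctsb, Ctsl and Ctsz included. Of the other 15, 10 were divided, with the leading transcript at 90% of the gene's TPM or less in both libraries. The division is the authors' estimate, made from reads of 36 bases.

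Lamp2 was split almost evenly. Lamp2-201 held 49.2% and 47.3% of its TPM in replicates 1 and 2, and Lamp2-202 held 43.9% and 42.7%. Their coding sequences are equally long, at 1245 bases or 415 codons, stop codon excluded, and share 1108 bases, with 137 bases of its own in each. Alternative last exons of this gene are known to give proteins with different membrane spans and cytosolic tails. Lamp2-203, the remaining coding form, had 0 and 4.39 counts. By expected counts Lamp2-202, which is 3604 bases long, led over Lamp2-201, which is 1769 bases long, so which form leads depends on the length correction.

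Among cathepsins, Ctsd-201 held 63.9% and 62.3% of Ctsd in replicates 1 and 2, and Ctsd-202 held 35.6% and 37.3%. The coding sequence of Ctsd-202 has 18 more bases, or 410 codons against 404. Ctse-201 held 62.2% and 64.6% of Ctse, and Ctse-202, which lacks 99 of its coding bases, held 36.2% and 34.2%. In both genes the shares differed by under 3 percentage points between libraries. Ctsa was unlike them: transcripts annotated as non-coding held 67.0% and 61.3% of its TPM, led by Ctsa-212, a retained-intron model of 436 bases at 39.1% and 38.7%. The complete coding form Ctsa-202 held 32.0% and 37.9% of TPM but 72.1% and 76.8% of the gene's expected counts.

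Among pump genes, Atp6v0b was led by Atp6v0b-204, a retained-intron model, at 43.6% and 59.6% of TPM. Atp6v0b-201, the complete coding form of 205 codons, held 43.0% and 29.6%, or 158 and 117 TPM. By expected counts Atp6v0b-201 held 55.3% and 40.3% and Atp6v0b-204 35.5% and 51.3%, so the leading form differed between replicates. Per length, the complete coding form Atp6v0b-201 lay below Atp6v0c, whose leading coding transcript held 96.2% and 96.6%. Atp6v0b-201 also lay below the gene levels of Lamp1, Atp6v1f, Atp6v0e and Ctsd in each library. For Atp6v0a1, Atp6v0a1-202 held 56.4% and 71.0%, and Atp6v0a1-210, with an additional 18-base coding stretch in an exon of its own, held 29.6% and 19.3%. For Atp6v1a, a fragment model with no annotated end, Atp6v1a-203 of 629 bases, held 48.2% and 50.3% of TPM but only 13.8% of expected counts on average. The complete Atp6v1a-202, of 617 codons, held 32.4% and 29.7% of TPM and 63.1% and 59.2% of counts. The shares of Atp6v0b and Atp6v0a1 moved by more than 10 percentage points between the libraries, those of Atp6v1a by less than 3.

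**Figure D3:**
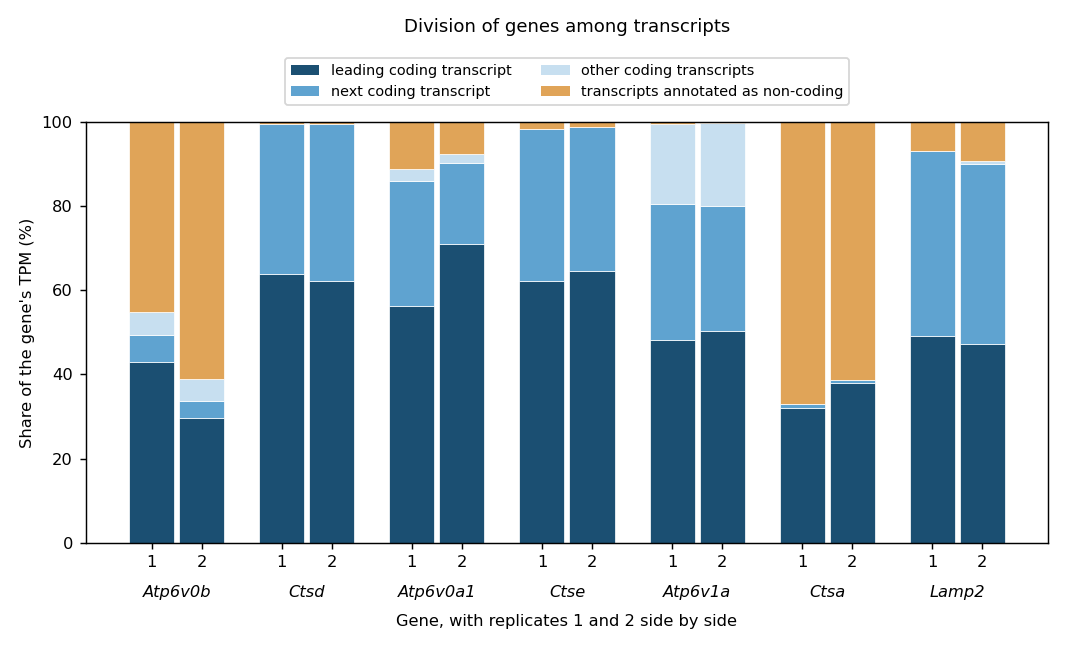
Share of each gene's TPM (percent) held by its leading, next and other coding transcripts and by transcripts annotated as non-coding, for replicates 1 and 2 of 7 genes. Non-coding models take 67.0% and 61.3% of Ctsa, while Lamp2 is divided between a pair of coding forms.

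Sequence shared with other genes limits some of these levels. Of the 36-base stretches of Atp6v1g1, 77.3% were unique to it among annotated transcripts. Its processed pseudogene Gm13453 shared 22.7% of them and was listed at 70.0 and 67.6 TPM, so the division of reads between these 2 is uncertain. For Atp6v0c, 88.4% were unique, and its pseudogene Atp6v0c-ps2 was listed at 15.6 and 16.9 TPM. Ctsd had 67.0% unique, but the transcript of the gene it shares with, Gm49369, is counted under Ctsd in the deposited tables and had 0 counts. Ctsl had 72.5% unique and shares the rest mostly with genes that have no row of their own in the tables.

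Strand use in counting is not stated, so genes that overlap on opposite strands may share reads. On the opposite strand, Ctsb overlaps Fdft1, a sterol synthesis gene at 79.6 and 76.0 TPM, over 774 exon bases. Lamp1 overlaps Grtp1, at 44.2 and 51.1 TPM, over 249 bases. Atp6v1g2 overlaps Nfkbil1, at 8.84 and 8.51 TPM, over 144 bases, and stood below it. Ctsa overlaps Pltp and Neurl2, which had 0 to 0.0600 TPM.

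The genes differed little between the libraries, much as other genes did. Among the 22 with at least 50 scaled counts on average, none differed by more than 2-fold, where 0.326% of the 8588 nuclear protein-coding genes with as many counts did. None differed by more than 1.5-fold, where 2.39% of those 8588 did. At shares this low, finding none among 22 genes does not set the group apart. The median absolute log2 ratio was 0.117 for the 22 genes and 0.138 for the 8588. The largest differences, as log2 ratios of replicate 1 over replicate 2, were those of Atp6v1d at 0.49 (95% counting interval 0.37 to 0.60), Atp6v1h at 0.45 (0.30 to 0.60) and Lamp2 at 0.39 (0.26 to 0.53). All 3 were higher in replicate 1. All 6 cathepsins of this set were lower in replicate 1, from -0.24 for Ctsb to -0.02 for Ctse, as was Lamp1 at -0.21. The counting intervals of Ctsa, Ctsl and Ctse covered 0. Of the 6 V0 genes 5 were also lower in replicate 1, and of the 8 V1 genes 2 were. Of all nuclear protein-coding genes with as many counts, 51.7% were higher in replicate 1. Spread over all genes, as the biological coefficient of variation, was 12.4%.

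**Figure D4:**
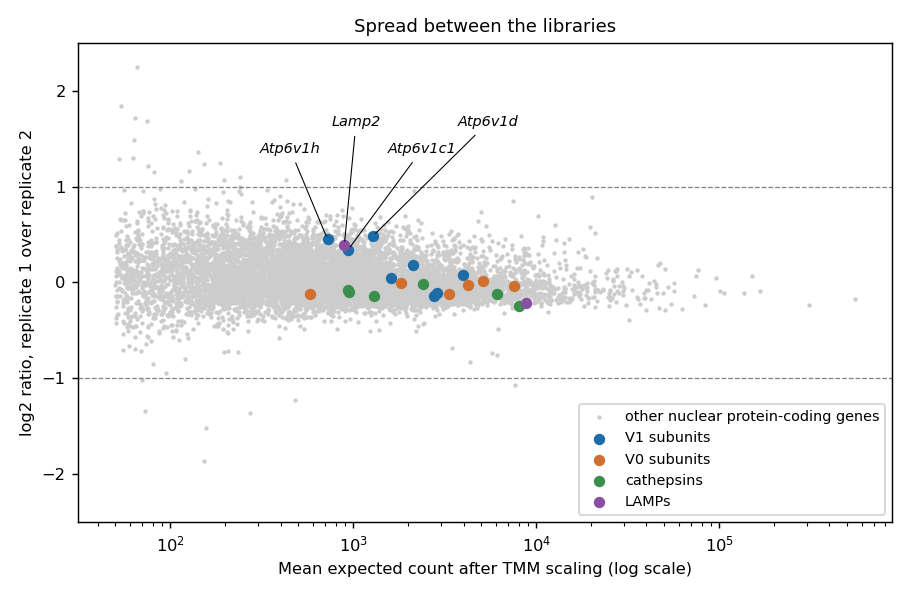
Log2 ratio of replicate 1 over replicate 2 against the mean expected count after scaling (log axis) for nuclear protein-coding genes with 50 scaled counts or more, with the 22 pump, cathepsin and LAMP genes coloured. The coloured points lie between -0.24 and 0.49, inside the dashed 2-fold lines; 1 gene lies outside the plotted range and 3 with 0 counts in 1 library are not drawn.

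Level and transcript length were weakly related over the 25 detected genes (Pearson -0.18 on log2 scales, Spearman -0.26). This is a description across genes of the same libraries, which are not independent.

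Genes that work with the pump and the cathepsins were mostly present too. Of 110 genes in 9 pathway lists, 87 were detected (79.1%), beside 41.2% of all nuclear protein-coding genes. The lists were chosen with earlier results of these data known, so this share is a description only. Of 13 accessory and assembly genes of the pump, 12 were detected, and Dmxl2 was not. Rogdi, which belongs to a complex that joins V1 to V0, was at 174 and 196 TPM, the accessory subunit gene Atp6ap1 at 132 and 151 TPM, and the assembly factor Ccdc115 at 70.5 and 69.0 TPM.

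The pump also serves as a platform for nutrient sensing, where Ragulator and the Rag GTPases hold mTORC1 at the lysosome. Of 15 such genes, 14 were detected, with Lamtor1, Lamtor2 and Lamtor3 at the top, at means of 133, 105 and 96.5 TPM. Rragb was at 0 counts. Of the 4 TFE factors that switch on lysosomal genes, Tfe3 stood at 98.7 and 100.4 TPM and Tfeb at 4.02 and 3.51 TPM, while Tfec and Mitf were at 0 counts. Tfe3 was thus the higher of the detected pair by far more than their SDs of 1.23 and 0.361 TPM.

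Cathepsins reach the lysosome by mannose 6-phosphate tags, and all 9 sorting genes were detected. Gga2, a coat adaptor for the tag receptors, led at 246 and 261 TPM, the receptor gene M6pr was at 98.6 and 97.9 TPM, and the adaptor Gga3 at 78.6 and 91.0 TPM. Of 11 cystatins and other inhibitors of cathepsins, 3 were detected: Cstb at 59.6 and 49.4 TPM, Cst3 at 35.9 and 33.3 TPM and Serpinb6a at 3.76 and 2.44 TPM. Their share, 27.3%, was the lowest of the 9 lists.

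Most other enzymes of the lysosome were lower than both Ctsd and Ctsb. Acp5 lay above Ctsb and below Ctsd in both libraries. Of 22 glycosidases and sulfatases, 19 were detected at a median of 8.53 TPM, among them Gaa and Fuca1, at means of 43.1 and 41.5 TPM. Of 11 genes in the lipid handling list, which also holds the acid phosphatase genes Acp2 and Acp5, 9 were detected. Acp5 was at 149 and 152 TPM. The sterol carrier gene Npc2 was at 102 and 104 TPM and the saposin precursor gene Psap at 44.7 and 49.3 TPM. Of 9 further peptidases and thioesterases, 5 were detected, led by Tpp1 at 48.8 and 51.1 TPM, Dpp7 at 28.3 and 23.8 TPM and Prcp at 14.3 and 16.2 TPM. Of 16 further membrane proteins, 14 were detected, led by Laptm5 at 193 and 223 TPM, the iron transporter gene Slc11a2 at 67.1 and 68.5 TPM and the channel gene Mcoln1 at 46.7 and 47.8 TPM. Hexa, Lipa, Gm2a, Ggh, Cd63 and Laptm4b were listed at 0 counts, although most cell types express Hexa and Cd63. Whether a listed 0 can be a failed estimate in these tables was not tested, and this bears on every gene given here at 0.

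**Figure D5:**
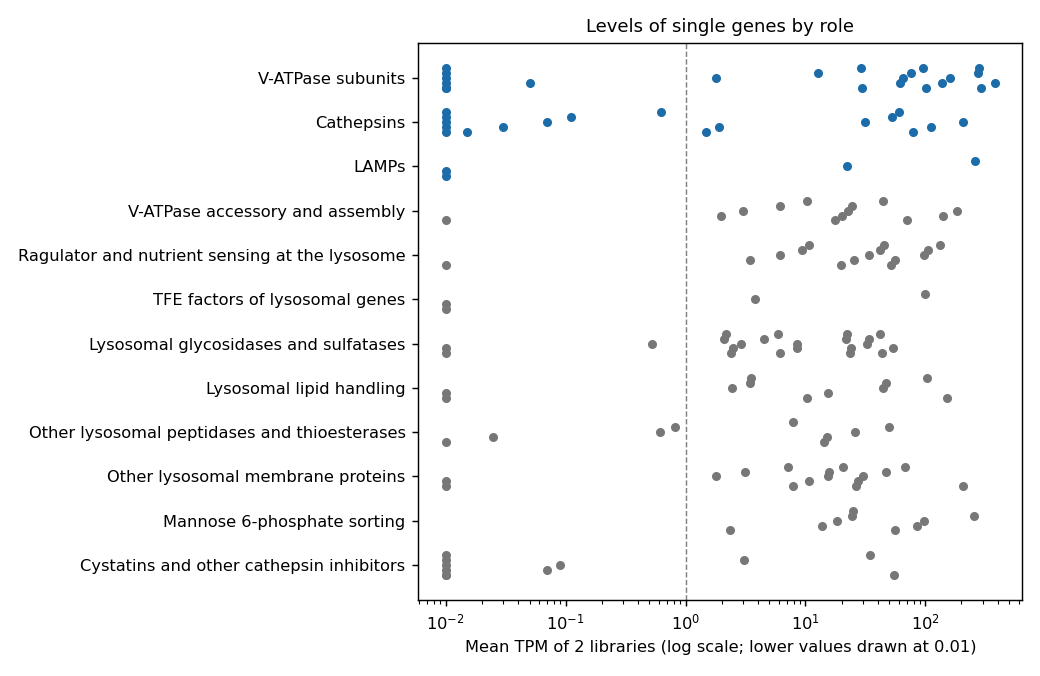
Mean TPM of both libraries (log scale, values under 0.01 drawn at 0.01) for single genes, 1 point a gene, with pump subunits, cathepsins and LAMPs in blue and 9 pathway lists in grey. The dashed line marks 1 TPM; V0 subunits and Gga2 are among the points furthest right, and inhibitors of cathepsins lie mostly at the left edge.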

How the data were processed

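Poly(A) RNA-seq of G1E-ER4 cells was available as 2 libraries of 1 group. Per the deposited manifests, values refer to mm10 and GENCODE M4. Which aligner, quantifier and strand setting were used is not stated in these sources. Per the file headers, the deposited gene and transcript tables hold an expected count (estimated, not always whole), TPM, FPKM, a posterior mean TPM and, for each transcript, its percent of the gene's TPM. The authors' bounds were not used. Length minus effective length gives reads of 36 bases.

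Symbols, classes and positions came from GENCODE M21 on GRCm38, and matched rows held 99.8% of the counts. Rows that name no gene were left out. Detection meant 1 TPM or more in both libraries, and ratios were taken per library on TPM. A lower bound used 3 counts per library. Libraries were scaled with TMM on rounded expected counts (edgeR 4.0.16, R 4.3.3, with DESeq2 1.42.0 size factors as the alternative), and the common dispersion was fitted with an intercept to 11011 genes that reached 10 counts in each library. The scaling step was tested on simulated data. Counting intervals are exact 95% binomial intervals of the pair of counts, and like the floors of 0.147 and 0.162 CPM they cover counting error only. Shared stretches of 36 bases were looked up among all M21 transcripts, and motifs in RefSeq windows.

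The genes and lists were chosen with earlier results of these data known. Every member was named, with values where detected, as were up to 3 of the most abundant detected genes of each list (the values of 1 gene are not reported here), the 6 most abundant divided genes with Lamp2, and the 3 genes most different between libraries. Genes at 0 in the lists, Tcirg1 and overlapping neighbours were named after their values were seen. The motif TCACGTGA and the motif share among detected genes were added after the data had been seen. Ifi30, a listed peptidase gene, is not classed as protein-coding in M21 and was not counted.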

Additional observations from a re-analysis of the deposited data

How the results depend on the processing

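The number of detected genes stayed within 1.5 times its value under posterior mean TPM, FPKM, CPM, rescaled TPM, thresholds of 0.1 and 5 TPM and without either replicate, overall and by role. Medians of the detected genes moved by more than the replicate SD with the unit. With FPKM they were 50.8 for V1, 164 for V0, 44.5 for cathepsins and 111 for LAMPs, and with CPM 82.0 for V1, 194 for V0 and 249 for LAMPs. With TPM rescaled to protein-coding genes without globins they were 93.3 for V1, 301 for V0, 81.9 for cathepsins and 204 for LAMPs, and with posterior mean TPM 197 for V0 and 54.4 for cathepsins. By expected counts, not divided by length, the log2 ratio of Atp6v0c over Atp6v0b was 0.27 and that of Ctsd over Ctsb -0.40, both reversed. Of the other ratios, 4 moved by more than their SD and kept their sign. They were 3.09 for Ctsb over Ctsl, -0.92 for Atp6v1a over Atp6v1b2, -3.71 for Atp6v0a2 over Atp6v0a1 and -0.45 for Ctsa over Ctsz. Without the filter on counts, 6 of the genes differed over 2-fold between libraries, none of them above 3 counts in a library. The GATA motif was found in 2 genes when the window began 100 bases before the start site. No paired analysis was possible because both libraries belong to a single group. The planned comparison of protein identity between paralogs was not run, since no protein sequences were at hand. With n = 2 the SD itself is imprecise. Genes under 50 scaled counts entered the comparison between libraries only where the filter was lowered or removed.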
